A study of Danio rerio with 36 samples.

Results

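A set of 5 genes of extracellular proteolysis and matrix crosslinking were followed across zebrafish eyes. They were F10 (ENSDARG00000088581), SERPINE3 (ENSDARG00000057108), TGM2 (ENSDARG00000074094), FN1 (ENSDARG00000006526) and BGN (ENSDARG00000002945), which makes 5 of the 31916 Ensembl gene identifiers measured. The genes were picked by identifier, with earlier results of these libraries in view. F10 had stood out in mutant RPE and retina, and SERPINE3 and FN1 in mutant whole eyes, so every mutant and transgene value of the 5 genes is given here as a description, with no p-value. Symbols in capitals are those of the human orthologue.

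RNA sequencing covered 12 groups of 3 libraries. At 1 month of age, eyes of lrp2-/- fish and of wild-type fish of the line labelled ZDR were taken whole or dissected into retina, the retinal pigment epithelium (RPE), and sclera with choroid. At 5 days, whole larval eyes of transgenic hsp70l:eGFP-bmp4 fish were set against eyes of wild-type larvae, and so were eyes of hsp70l:shha-eGFP fish. The hsp70l promoter is driven by heat shock in any cell type, the labels give no heat-shock scheme, and they name neither the lrp2 allele nor the background of the mutants, so genotype and family cannot be told apart at 1 month. The labels also do not say whether libraries of a group came from separate fish, and p-values therefore measure only the spread between libraries.

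F10 encodes coagulation factor X, the protease that turns prothrombin into thrombin on cell membranes. SERPINE3 belongs to the serpins, a family of proteins best known as inhibitors of serine proteases. TGM2 encodes a transglutaminase that joins glutamine and lysine side chains of matrix proteins, with FN1, fibronectin, among its best known substrates. BGN encodes biglycan, a small proteoglycan that binds collagen and growth factors of the TGF-beta and BMP families. LRP2, megalin, is a large endocytic receptor that clears extracellular ligands, among them protease and inhibitor complexes. RPE and sclera lay down and remodel the matrix around the growing eye, and eyes of zebrafish lrp2 mutants are known to become enlarged.

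Libraries held 17543328 to 26708423 expected counts, and the summed counts of a gene over a group ran between 24 (F10 in wild-type retina) and 44585 (BGN in lrp2-/- RPE). LRP2 (ENSDARG00000102506) transcript was present in mutants, at 15.4 ± 1.06 TPM in lrp2-/- retina and 20.7 ± 0.522 TPM in wild-type retina (SD, n = 3 each), so its level does not check the genotype labels. BMP4 was at 133 ± 14.3 TPM in hsp70l:eGFP-bmp4 eyes and 3.68 ± 0.199 TPM in their wild types (SD, n = 3 each). SHH (ENSDARG00000068567) ranged between 14.4 and 94.6 TPM in hsp70l:shha-eGFP eyes and between 4.19 and 11.3 TPM in their wild types. Library 13 of the hsp70l:shha-eGFP group stood apart, with a median Spearman correlation over genes of 0.834 to its own group, and mutant RPE library 21 correlated as well with wild-type RPE (0.923) as with its own group (0.923). Without mutant RPE library 21 the log2 fold changes in RPE were 3.76 for F10, 3.29 for SERPINE3 and -2.04 for TGM2, all still past the threshold used below. Wild-type retina library 12 carried lens transcripts at 16682 TPM over 10 markers, and without it the log2 fold changes in retina were 3.90 for F10 and 2.97 for SERPINE3. Dissected RPE carried the 12 RPE markers at a summed level of 6956 to 11100 TPM in mutants and 12211 to 21625 TPM in wild type, all 12 at 1 TPM or more in both. The retina pieces held the rod markers at 39481 to 44136 TPM in mutants and 45474 to 52145 TPM in wild type, and the sclera pieces were rich in surface epithelium (81329 to 90385 TPM in mutants, 84312 to 101410 TPM in wild type).

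In lrp2 mutants the protease gene F10 and the serpin gene SERPINE3 were both far higher in every piece of the eye. The crosslinking gene TGM2 was lower in RPE and in sclera with choroid. FN1 was higher in whole mutant eyes, and BGN was 1.47-fold lower in mutant sclera with choroid. Tests of counts used edgeR's quasi-likelihood test with an adjusted p under 0.05 as threshold. In lrp2-/- RPE, 3 of the 5 genes passed it, against 1.37% of 21064 genes tested. In lrp2-/- retina 2 passed, against 19.5% of genes. In lrp2-/- sclera with choroid 4 passed, against 6.64%, and in lrp2-/- whole eyes 2 passed, against 0.934%. The 3 libraries of each genotype did not overlap in TPM for 3 genes in whole eyes (21.0% of all genes did not overlap there), 4 in RPE (27.4%), 3 in retina (36.5%) and 4 in sclera with choroid (35.9%). The genes were chosen from such contrasts, so nothing is read from these counts. For the same reason, a gene of the 5 passing the threshold in mutants is a description and no independent support. All 5 entered every test. F10 entered the retina test on the strength of the mutant libraries, since the wild-type retinas held 9, 3 and 12 counts of it.

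**Figure D1:**
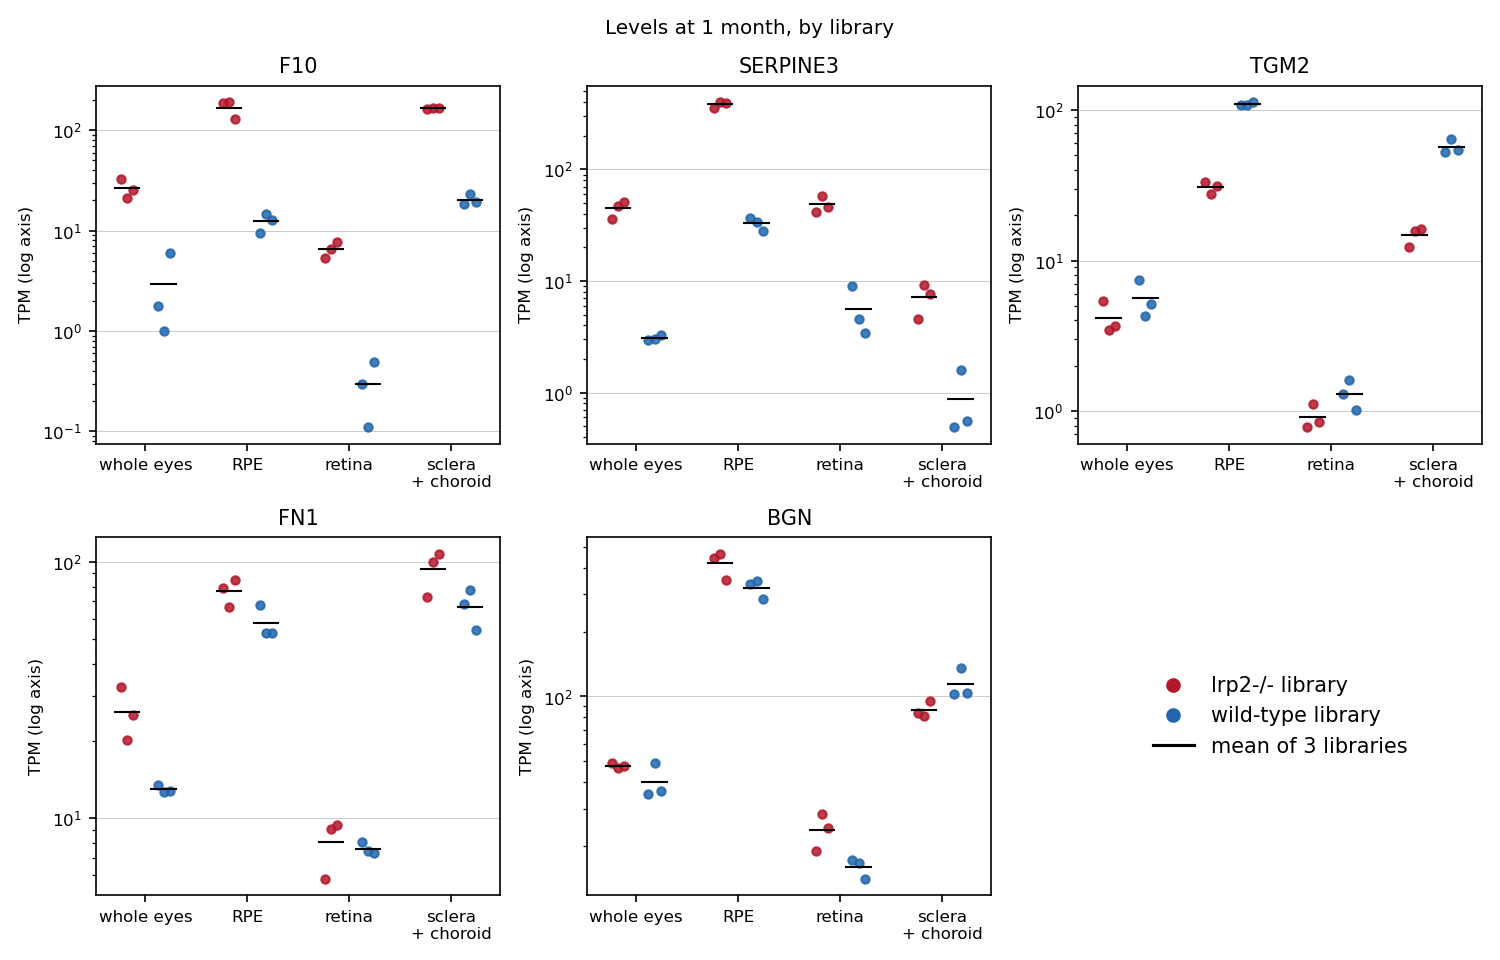
Levels of F10, SERPINE3, TGM2, FN1 and BGN in TPM (log axis) in each library of 1 month, with lrp2-/- libraries left of wild-type libraries in each tissue and a bar at the mean of 3. F10 and SERPINE3 of lrp2-/- fish lie above all wild-type libraries of the same tissue in all 4 tissues, and TGM2 of lrp2-/- fish lies below them in RPE and in sclera with choroid.

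F10, the protease, stood at 187, 190.2 and 128 TPM in the 3 lrp2-/- RPE libraries, against 9.46, 14.8 and 12.8 TPM in wild-type RPE. Each mutant library was far above each wild-type library, and the lowest mutant value came from library 21. The log2 fold change was 3.62 (SE 0.23), a 12.3-fold difference in counts that passed edgeR's threshold. Surface epithelium markers were uneven in mutant RPE, at 25191, 8171 and 2712 TPM in libraries 12, 13 and 21. In wild-type RPE they summed to 9353 to 10386 TPM, and their part in the F10 result was not tested. The lrp2-/- libraries of sclera with choroid held 162, 168 and 168 TPM of F10 and the wild-type libraries 18.3, 23.4 and 19.4 TPM. These groups were tight and well apart, with a log2 fold change of 2.86 (SE 0.10) that passed the threshold. The mutant RPE and mutant sclera with choroid thus reached like levels, with overlapping ranges, where wild-type sclera with choroid lay above wild-type RPE.

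F10 was scarce in the retina. It stood at 5.37, 6.62 and 7.67 TPM in lrp2-/- retina, against 0.30, 0.11 and 0.49 TPM in wild-type retina. The groups did not overlap, and the log2 fold change of 4.29 (SE 0.39) passed the threshold, with the wild-type side resting on 24 counts in all. In whole eyes F10 was at 32.9, 21.1 and 25.2 TPM in lrp2-/- libraries and at 1.76, 1.01 and 6.04 TPM in wild-type libraries. Wild-type library 3 was the highest of its group, and the log2 fold change of 3.09 (SE 0.58) did not pass edgeR's threshold, although no mutant library overlapped the wild types. Without that library it was 4.05 (SE 0.36) and passed, and it also passed with DESeq2 (3.08) and with limma on TPM (2.99). In RPE the call was lost without wild-type library 11 or 13, at log2 fold changes of 3.43 and 3.68.

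F10 is known as a liver product, so liver transcripts were read beside it. In RPE the 10 liver markers summed to 811 to 1406 TPM in mutants and to 1257 to 1610 TPM in wild type, and 3 and 4 of the 10 reached 1 TPM. Nearly all of that sum was ambp, at 1008 TPM in lrp2-/- RPE and 1376 TPM in wild-type RPE, while fabp10a, a defining liver gene, was at 0.473 TPM in lrp2-/- RPE and listed at 0 in wild-type RPE. In sclera with choroid the sum was 11.1 to 21.9 TPM in mutants and 15.7 to 19.6 TPM in wild type, and fabp10a was listed at 0 in mutants and stood at 0.21 TPM in wild type. In retina the sum was 17.2 to 28.2 TPM in mutants and 13.8 to 24.8 TPM in wild type, with ambp at 17.3 TPM in mutants and 11.7 TPM in wild type. In whole eyes the liver sum was higher in mutants without overlap, at 124 to 138 TPM against 33.2 to 63.6 TPM in wild type, again carried by ambp (123 TPM in mutants, 42.8 TPM in wild type). The ranges of the liver sum overlapped between genotypes in the 3 dissected pieces, and its part in the F10 result was not tested. In bulk tissue fewer cells of a type and less RNA per cell cannot be told apart, and this holds for every level given here.

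In the gene order of assembly GRCz12tu, F10 lies beside prozb, taken here as PROZ (ENSDARG00000076900) by dropping the paralogue letter. PROZ encodes protein Z, in humans a cofactor for the inhibition of activated factor X. PROZ was at 4.92, 3.5 and 4.15 TPM in lrp2-/- retina, against 0.35, 0.55 and 0.37 TPM in wild-type retina. These groups were well apart, with a log2 fold change of 3.22 (SE 0.34, edgeR adjusted p = 0.000399). In whole eyes PROZ averaged 1.86 TPM in mutants and 0.317 TPM in wild type (log2 2.45, SE 0.43, edgeR adjusted p = 0.0506). In sclera with choroid it averaged 0.70 TPM in mutants and 0.15 TPM in wild type (log2 2.03, SE 0.53, edgeR adjusted p = 0.0669). Both values fell short of the threshold. Wild-type levels were low in all 3 tissues, so PROZ may have entered these tests on the strength of the mutant libraries. In RPE PROZ stayed too low to be tested, at 0.48 TPM in mutants and 0.123 TPM in wild type. The next neighbours PCID2, CUL4A and LAMP1 passed the threshold in none of the 4 tissues, with edgeR adjusted p-values from 0.0531 for CUL4A in retina to 0.915 for LAMP1 in whole eyes. The 3 identifiers of F7, the other protease of this gene group, were at or below 0.633 TPM on average in every group of 1 month. Only ENSDARG00000100782 was high enough to be tested, and it passed in none of the 4 tissues.

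SERPINE3, the serpin, was highest in mutant RPE. The lrp2-/- libraries there held 355, 399 and 391 TPM, against 36.9, 34.1 and 28.2 TPM in wild-type RPE. The log2 fold change was 3.35 (SE 0.16) and passed edgeR's threshold. In whole eyes it stood at 35.8, 46.7 and 51.5 TPM in mutants and at 2.96, 3.04 and 3.29 TPM in wild type. That 13.4-fold difference (log2 3.74, SE 0.19) passed the threshold and the wild-type libraries were nearly alike. In retina the lrp2-/- libraries held 41.9, 57.9 and 46.4 TPM and the wild-type libraries 8.97, 4.61 and 3.4 TPM, with a log2 fold change of 3.10 (SE 0.38) past the threshold. Sclera with choroid had the least, with 4.56, 9.16 and 7.71 TPM in mutants and 0.49, 1.61 and 0.56 TPM in wild type, and its log2 fold change of 2.91 (SE 0.45) passed.

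The fold of SERPINE3 ran between 7.51-fold in sclera with choroid and 13.4-fold in whole eyes, and its level in wild type differed widely between the 4 tissues. In an edgeR fit of all 24 libraries of 1 month, no difference of its lrp2 effect between a pair of tissues passed the threshold. The largest, sclera with choroid minus whole eyes, was -0.84 (SE 0.51). With SEs of this size the fit cannot show that the effects were alike. The sclera call was lost without wild-type library 11 or mutant library 12 or 13, at log2 fold changes of 2.65, 2.65 and 2.92. RPE and melanosome transcripts were read beside it. In retina the 12 RPE markers summed to 174 to 266 TPM in mutants and 183 to 229 TPM in wild type, and the 10 melanosome markers to 196 to 229 TPM in mutants and 166 to 197 TPM in wild type, and SERPINE3 was 8.58-fold higher there. In sclera with choroid the melanosome sum was 253 to 543 TPM in mutants and 194 to 224 TPM in wild type, without overlap, and the RPE sum 94.6 to 154 TPM in mutants and 119.8 to 138 TPM in wild type, with overlap. In whole eyes the melanosome sum was 559 to 701 TPM in mutants and 220 to 374 TPM in wild type, and the RPE sum 628 to 825 TPM in mutants and 348 to 624 TPM in wild type. In dissected RPE the RPE sum was lower in mutants, and the melanosome sum was 11232 to 13898 TPM in mutants and 9247 to 11541 TPM in wild type, with overlap. The part of these transcripts in the SERPINE3 result was not tested. Of 6 measured neighbours of SERPINE3 in the GRCz12tu order, esyt3 passed the threshold, lower in sclera with choroid (60.7 TPM in mutants, 106 TPM in wild type), and dhrs12, WDFY2, ints6, cops8 and trim63b passed it in none of the 4 tissues.

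TGM2, the crosslinking enzyme, went the other way. In RPE it was at 33.5, 27.8 and 31.2 TPM in lrp2-/- libraries and at 107, 108 and 113 TPM in wild-type libraries. Each genotype was tight, and the log2 fold change of -1.99 (SE 0.12), a 3.99-fold deficit, passed edgeR's threshold. Sclera with choroid held it at 12.2, 15.7 and 16.2 TPM in mutants and at 52.5, 64.1 and 54.5 TPM in wild type. This 4.31-fold deficit (log2 -2.11, SE 0.13) passed as well. Without wild-type library 11 the RPE call was lost, at a log2 fold change of -2.03.

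In the remaining tissues TGM2 was low and the genotypes overlapped. Whole eyes held 5.37, 3.48 and 3.69 TPM in mutants and 7.42, 4.26 and 5.13 TPM in wild type (log2 -0.59, SE 0.24). Retina held 0.78, 1.11 and 0.85 TPM in mutants and 1.29, 1.61 and 1.02 TPM in wild type (log2 -0.53, SE 0.34). Neither value passed edgeR's threshold. In the fit of 24 libraries, the lrp2 effect on TGM2 in RPE lay below that in retina by a log2 difference of -1.47 (SE 0.32) and below that in whole eyes by -1.39 (SE 0.28). The effect in sclera with choroid differed from that in retina by -1.60 (SE 0.32) and from that in whole eyes by -1.52 (SE 0.28), and these 4 differences passed the threshold. A second identifier with the symbol TGM2 (ENSDARG00000070157) was at most 1.83 TPM on average in any group and passed in neither lrp2 comparison in which it was tested, RPE and sclera with choroid. Red blood cell transcripts moved in the same direction in RPE, with 6 markers summing to 2566 to 4558 TPM in mutants and 15288 to 19199 TPM in wild type, and their part in the RPE result was not tested. In sclera with choroid that sum was 183 to 246 TPM in mutants and 228 to 724 TPM in wild type, with overlapping ranges. The means there were 215 and 481 TPM, and the part of these transcripts in the TGM2 result of sclera with choroid was not tested.

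FN1, the matrix glycoprotein, was at 32.3, 20.1 and 25.3 TPM in lrp2-/- whole eyes, against 13.5, 12.6 and 12.7 TPM in wild-type whole eyes. The mutant libraries spread widely and all lay above the wild types, and the 2.00-fold difference (log2 1.00, SE 0.16) passed edgeR's threshold. That call was lost when any of the 3 wild-type libraries was left out (log2 0.99, 1.05 and 0.97) and when mutant library 2 or 3 was left out (1.12 and 1.04), and with limma on TPM (0.92). Fibroblast and collagen markers over 10 genes summed to 1821, 320 and 618 TPM in the same mutant eyes and to 852, 288 and 424 TPM in the wild types. The ranges overlapped, and within each genotype the libraries ranked as they did for FN1. The part of these markers in the result was not tested.

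In the dissected pieces FN1 overlapped between genotypes. RPE held 79.2, 66.3 and 84.9 TPM in mutants and 67.5, 52.8 and 52.8 TPM in wild type (log2 0.29, SE 0.20). Sclera with choroid held 73.1, 99.3 and 107 TPM in mutants and 68.3, 77.6 and 54.3 TPM in wild type (log2 0.34, SE 0.17). Retina held 5.80, 9.04 and 9.39 TPM in mutants and 8.05, 7.45 and 7.31 TPM in wild type (log2 0.13, SE 0.24), and none of these values passed edgeR's threshold. The other FN1 identifier (ENSDARG00000019815) had 134 ± 36.6 TPM in lrp2-/- RPE and 87.5 ± 25.5 TPM in wild-type RPE (SD, n = 3 each). It passed in none of the 4 tissues, with 17.3, 5.50 and 10.1 TPM in mutant whole eyes and 7.78, 4.96 and 6.52 TPM in wild-type whole eyes.

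BGN, the proteoglycan, had the highest TPM of the 5 genes in most groups. RPE held 444, 464 and 349 TPM in lrp2-/- libraries and 334, 346 and 285 TPM in wild-type libraries. The groups were just separate, but the log2 fold change in counts was 0.21 (SE 0.13) and did not pass edgeR's threshold. It was lower in mutant sclera with choroid, with 83.8, 80.8 and 94.9 TPM against 103, 135 and 104 TPM in wild type, and the log2 fold change of -0.56 (SE 0.11) passed. That call was lost without wild-type library 11 or 12 and without any of the 3 mutant libraries, at log2 fold changes from -0.62 to -0.46, and with limma on TPM (-0.38).

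In retina BGN was at 18.9, 28.4 and 24.3 TPM in mutants and at 17.2, 16.7 and 14.1 TPM in wild type. These libraries did not overlap, and the log2 fold change of 0.56 (SE 0.17) fell just short of edgeR's threshold. Without mutant library 11 it was 0.73 and passed, and it also passed with DESeq2 (0.57) and with limma on TPM (0.54). Whole eyes were at 48.9, 46.5 and 47.4 TPM in mutants and 35.0, 49.1 and 36.2 TPM in wild type, with overlap and a log2 fold change of 0.11 (SE 0.15). The effect in sclera with choroid differed from that in retina by a log2 difference of -1.13 (SE 0.22), which passed the threshold in the fit of 24 libraries. The other BGN identifier (ENSDARG00000017884) was far lower and uneven, at 79.9 TPM in wild-type RPE library 12 but 0.70 and 1.97 TPM in the other wild-type RPE libraries. It passed in retina, where it was lower in mutants (0.233 ± 0.166 TPM, against 1.23 ± 0.738 TPM in wild type, SD, n = 3 each; log2 -2.37, SE 0.63, edgeR adjusted p = 0.0270). It entered that test on the strength of the wild-type libraries, with 40, 20 and 10 counts, against 8, 5 and 1 in mutants.

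**Figure D2:**
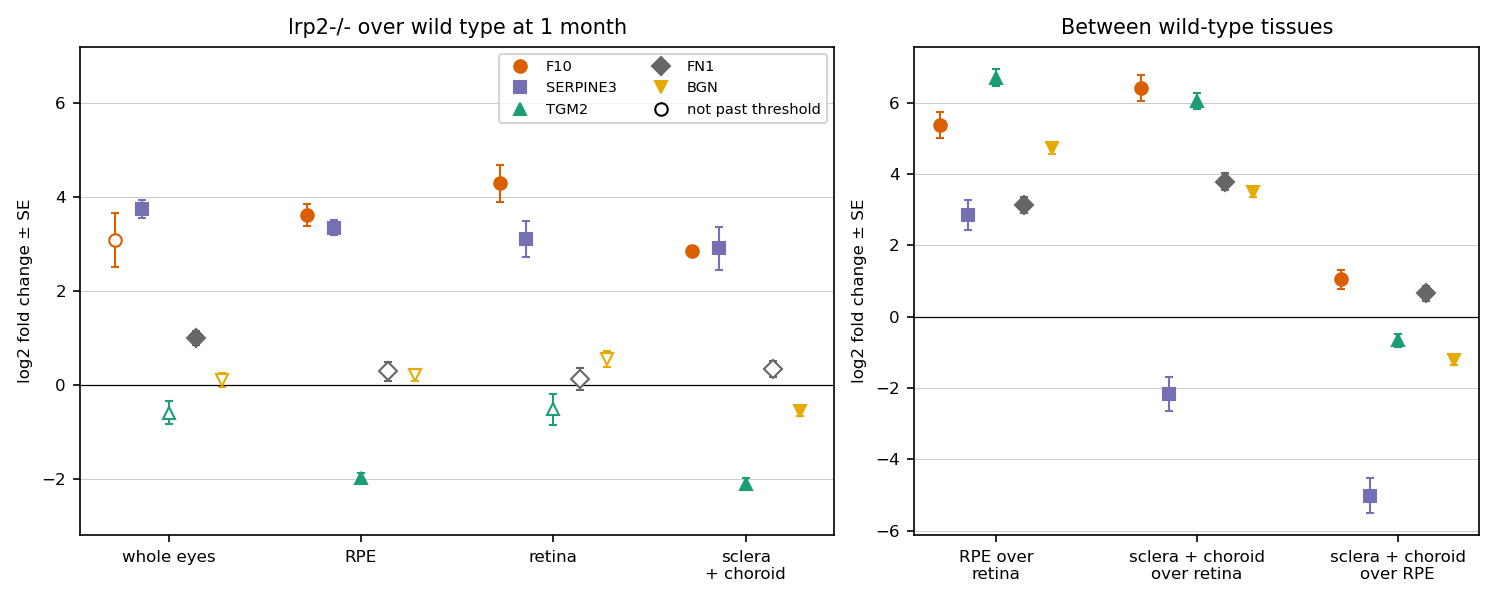
Log2 fold changes ± SE from edgeR for the 5 genes, in lrp2-/- over wild type in 4 tissues (left) and between wild-type tissues (right), with filled symbols past the threshold and open symbols not. F10 and SERPINE3 lie between 2.86 and 4.29 on the left, TGM2 near -2 in RPE and in sclera with choroid, FN1 at 1.00 in whole eyes, and BGN at 0.56 in retina and -0.56 in sclera with choroid, of which the sclera value passed.

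The wild-type tissues at 1 month were compared with each other in 1 edgeR fit of 9 libraries. As far as is known, the choice of the genes did not use this comparison. The same wild-type libraries were the reference of the mutant contrasts, so the p-values between tissues are not independent of that choice. The RPE and sclera with choroid pieces held F10, TGM2, FN1 and BGN well above retina. SERPINE3 was highest in the RPE piece. That piece also carried markers of other cells. On average, endothelium markers summed to 1627 TPM there, 307 TPM in sclera with choroid and 45 TPM in retina. Red blood cell markers summed to 17582, 481 and 168 TPM, and fibroblast and collagen markers to 2674, 11405 and 54.6 TPM, in the same order. Surface epithelium markers summed to 9846, 94774 and 286 TPM, and rod markers to 7947, 512 and 49452 TPM, again in that order. Their part in these differences was not tested. All 5 genes were higher in RPE than in retina, against 69.1% of 22776 genes tested that differed in either direction and 35.9% that were higher. In RPE against retina the log2 fold change was 6.70 for TGM2 (SE 0.23, edgeR adjusted p = 6.92e-08), which averaged 109 ± 2.78 TPM in RPE and 1.31 ± 0.295 TPM in retina (SD, n = 3 each). For F10 it was 5.36 (SE 0.37, edgeR adjusted p = 1.41e-06) and for BGN 4.72 (SE 0.15, edgeR adjusted p = 6.22e-08). F10 entered this fit through the RPE and sclera with choroid libraries, since wild-type retina held 24 counts of it. FN1 had 3.13 (SE 0.23, edgeR adjusted p = 2.24e-06) and SERPINE3 had 2.84 (SE 0.42, edgeR adjusted p = 0.000228). RPE and retina libraries did not overlap for any of the 5, and they did not overlap for 75.5% of all genes.

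Sclera with choroid was above retina for 4 of the genes and below it for SERPINE3, against 73.5% of genes that differed (37.9% higher and 35.6% lower). F10 had a log2 fold change of 6.41 (SE 0.37, edgeR adjusted p = 4.22e-07), with the retina side resting on 24 counts, and TGM2 had 6.04 (SE 0.23, edgeR adjusted p = 7.05e-08). The order of these 2 genes was not firm, since the lowest value over the alternatives was 4.04 for F10 and 4.66 for TGM2. FN1 was at 3.78 (SE 0.24, edgeR adjusted p = 6.67e-07) and BGN at 3.5 (SE 0.14, edgeR adjusted p = 8.25e-08). SERPINE3 had a log2 fold change of -2.17 (SE 0.47, edgeR adjusted p = 0.00226), with 0.887 ± 0.627 TPM in sclera with choroid and 5.66 ± 2.93 TPM in retina (SD, n = 3 each). The libraries of these tissues did not overlap for any of the 5 genes, and they did not overlap for 81.8% of all genes.

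Between sclera with choroid and RPE the genes divided, with 2 higher in sclera with choroid and 3 lower, against 46.2% of all genes that differed (24.3% higher and 22.0% lower). SERPINE3 was lower in sclera with choroid by a log2 fold change of -5.02 (SE 0.49, edgeR adjusted p = 4.62e-05), against 33.1 ± 4.41 TPM in RPE (SD, n = 3). BGN was also lower, at -1.22 (SE 0.13, edgeR adjusted p = 7.70e-05), and so was TGM2 at -0.67 (SE 0.18, edgeR adjusted p = 0.0130). F10 was higher in sclera with choroid, at 1.05 (SE 0.26, edgeR adjusted p = 0.0101). FN1 was higher at 0.65 (SE 0.21, edgeR adjusted p = 0.0324), but its libraries overlapped, with 66.7 ± 11.7 TPM in sclera with choroid and 57.7 ± 8.53 TPM in RPE (SD, n = 3 each). The FN1 call was lost with limma on TPM (log2 0.20, adjusted p = 0.292) and without RPE library 12 or 13 or sclera library 11 or 12 (log2 0.51, 0.58, 0.58 and 0.60). The other 4 genes did not overlap between these tissues, against 58.9% of all genes.

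Over all 12 groups the order of mean TPM differed by gene. F10 was highest in lrp2-/- RPE (168 ± 34.6 TPM) and lrp2-/- sclera with choroid (166 ± 3.20 TPM), whose ranges overlapped, and lowest in wild-type retina (0.30 ± 0.19 TPM, SD, n = 3 in each group). Whole mutant eyes and wild-type sclera with choroid followed, overlapping at 21.1 to 32.9 TPM and 18.3 to 23.4 TPM. From wild-type RPE downward each group overlapped the next, through the larval groups, mutant retina and wild-type whole eyes. SERPINE3 was highest in lrp2-/- RPE (382 ± 23.6 TPM), followed by lrp2-/- retina (48.8 ± 8.23 TPM) and lrp2-/- whole eyes (44.7 ± 8.03 TPM), the last 2 overlapping, and lowest in wild-type sclera with choroid (SD, n = 3 in each group). Mutant whole eyes overlapped wild-type RPE, and the 4 larval groups overlapped in a row below them. Mutant retina thus held more SERPINE3 than wild-type RPE on average, with ranges of 41.9 to 57.9 TPM in mutant retina and 28.2 to 36.9 TPM in wild-type RPE. TGM2 had its top 4 groups apart from each other, in the order wild-type RPE, wild-type sclera with choroid, lrp2-/- RPE and lrp2-/- sclera with choroid. All larval and whole-eye groups of TGM2 overlapped in a row below, and both retina groups lay lowest. FN1 had its top 4 groups in RPE and in sclera with choroid of both genotypes, each overlapping the next, with mutant whole eyes apart below them and both retinas lowest. BGN was highest in lrp2-/- RPE, then in wild-type RPE, wild-type sclera with choroid and lrp2-/- sclera with choroid, each without overlap with the next, and lowest in wild-type retina.

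In larval eyes at 5 days none of the 5 genes passed edgeR's threshold under either transgene in the fit without pairs, while F10 in the bmp4 line, lower in transgenic eyes, passed in the fit that pairs same-numbered libraries. In hsp70l:eGFP-bmp4 eyes 0 of the 5 genes passed, 0 had an unadjusted p under 0.05 and DESeq2 also called 0, against 0.105% of 21035 genes called by edgeR (0.0808% higher and 0.0238% lower). In hsp70l:shha-eGFP eyes 0 of the 5 passed, 1 (FN1) had an unadjusted p under 0.05 and DESeq2 called 0, against 0.0% of 20812 genes called by edgeR, 113 genes with an unadjusted p under 0.05 and 2 genes called by DESeq2. Libraries did not overlap for 0 of the 5 genes in the bmp4 line, against 9.29% of all genes, and for 1 in the shha line, against 7.70%. The larval and the 1-month values come from separately deposited tables and were not tested against each other.

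FN1 was at 8.96, 7.94 and 8.44 TPM in hsp70l:shha-eGFP eyes and at 15.8, 13.9 and 19.5 TPM in their wild types. Every transgenic library lay below every wild-type library, at a log2 fold change of -0.91 (SE 0.24). In the bmp4 line FN1 was even, at 13.2, 11.4 and 14.4 TPM in hsp70l:eGFP-bmp4 eyes and 16.8, 12.6 and 12.2 TPM in their wild types (log2 -0.00, SE 0.15). Same-numbered larval libraries deviated together, so a fit with the number as a block was read as well. With the block, FN1 in the shha line had a log2 fold change of -0.87 (SE 0.24), short of the threshold. With the block and without pair 13, an alternative added after the data were seen, it was -0.62 (SE 0.09) and passed, as did 28 of all genes.

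F10 in hsp70l:eGFP-bmp4 eyes was at 1.26, 1.61 and 0.17 TPM, against 3.85, 3.48 and 0.20 TPM in the same-numbered wild types. Pairs 11 and 12 were lower in transgenic eyes, while both libraries of pair 13 had hardly any. The log2 fold change was -1.22 (SE 0.91), and with the block it was -1.17 (SE 0.26) and passed the threshold, making 1 of the 5 genes, against 2.90% of all genes with the block (1.58% higher and 1.31% lower). In the shha line F10 was at 10.2, 18.4 and 4.21 TPM in hsp70l:shha-eGFP eyes and at 7.78, 16.9 and 7.55 TPM in their wild types (log2 0.38, SE 0.38). F10 thus differed widely from one larval pair to the next.

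SERPINE3 stood at 11.2, 16.5 and 16.96 TPM in hsp70l:eGFP-bmp4 eyes and at 11.0, 13.6 and 16.0 TPM in their wild types (log2 0.07, SE 0.22). In the shha line it stood at 13.2, 12.8 and 7.81 TPM in hsp70l:shha-eGFP eyes and at 11.2, 14.4 and 10.1 TPM in their wild types (log2 0.29, SE 0.24). Both lines overlapped with their wild types. TGM2 ranged between 3.63 and 8.22 TPM in hsp70l:eGFP-bmp4 eyes and between 2.87 and 9.36 TPM in their wild types (log2 -0.13, SE 0.48). In the shha line TGM2 ranged between 2.86 and 4.87 TPM in hsp70l:shha-eGFP eyes and between 2.95 and 6.58 TPM in their wild types (log2 0.40, SE 0.56). Its mean TPM also went the other way, at 4.17 in transgenic eyes and 4.44 in wild type. BGN was at 27.4, 21.5 and 23.7 TPM in hsp70l:eGFP-bmp4 eyes and at 30.2, 28.0 and 26.2 TPM in their wild types, lower in every same-numbered pair but with overlapping ranges (log2 -0.22, SE 0.12). In hsp70l:shha-eGFP eyes BGN was at 27.7, 21.8 and 5.19 TPM, against 26.4, 21.4 and 22.3 TPM in their wild types (log2 -0.25, SE 0.34). The low value came from library 13, and without it the log2 fold change was 0.04 (SE 0.15).

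**Figure D3:**
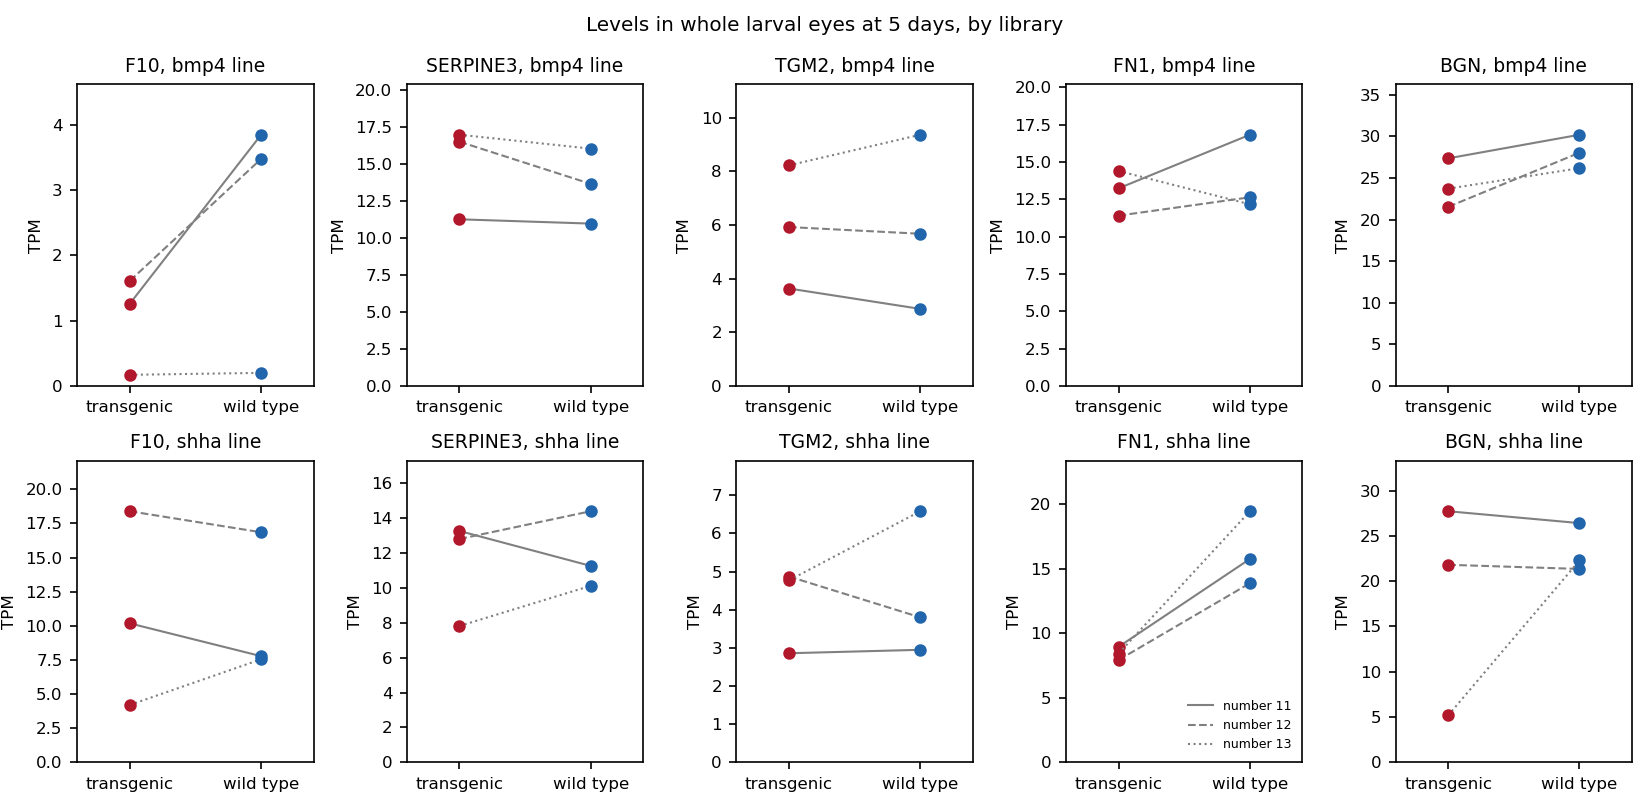
TPM of the 5 genes in whole larval eyes at 5 days, with transgenic libraries on the left and wild-type libraries on the right of each panel and lines joining libraries of the same number. FN1 is the gene whose transgenic libraries all lie below the wild types, at 7.94 to 8.96 TPM against 13.9 to 19.5 TPM in the shha line.

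The wider pathways were read from 10 lists, which hold 213 genes besides the 5. The lists cover coagulation, protease-activated receptors, the plasminogen system, serpins, transglutaminases, lysyl oxidases, small proteoglycans, fibronectin partners, matrix metalloproteases and TGF-beta. They were chosen with earlier results of these data known, and genes are named from them by the largest fold changes past the threshold. Their shares and p-values are therefore descriptions and no independent support. In lrp2-/- whole eyes 0 of 179 tested were higher and 1 was lower, against 0.374% of all genes higher and 0.56% lower. In lrp2-/- RPE 1 of 180 was higher and 1 was lower, or 0.556% each way, against 0.574% of all genes higher and 0.798% lower. In lrp2-/- retina 22 of 158 were higher and 19 lower, or 13.9% and 12.0%, against 8.13% and 11.3% of all genes. In lrp2-/- sclera with choroid 5 of 184 were higher and 12 lower, or 2.72% and 6.52%, against 2.81% and 3.82% of all genes. The median log2 fold change of the listed genes was 0.15 in whole eyes, 0.16 in RPE, 0.03 in retina and -0.04 in sclera with choroid, against 0.01, 0.03, -0.01 and 0.00 over all genes. The call counts rested on few libraries. In sclera with choroid 0 were higher and 1 lower without mutant library 12, and likewise without mutant library 13. In RPE 6 were higher and 1 lower without mutant library 21. In the larval lines 0 of 171 (bmp4) and 0 of 167 (shha) passed edgeR's threshold, while with the block 8 of 171 were higher and 14 lower in the bmp4 line, against 1.58% of all genes higher and 1.31% lower.

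Of 19 coagulation genes tested in retina besides F10, 5 were higher in mutants and 3 lower, against 8.13% of all genes higher and 11.3% lower (median log2 0.18, against -0.01 over all genes). Besides PROZ, f5 was higher, the gene of factor V, which is the cofactor of F10 in making thrombin. It averaged 9.56 ± 3.46 TPM in lrp2-/- retina and 1.98 ± 0.0839 TPM in wild-type retina (SD, n = 3 each; log2 2.22, edgeR adjusted p = 0.00299). PROC (ENSDARG00000038258), protein C, whose activated form cuts factor V, was lower, at 0.257 ± 0.0252 TPM in lrp2-/- retina and 5.23 ± 2.92 TPM in wild-type retina (SD, n = 3 each; log2 -3.999, edgeR adjusted p = 0.000252). Factor VIII, f8, was lower too (log2 -1.28), and so was vwf by counts (log2 -0.97), although vwf averaged 1.22 TPM in both genotypes. The serpin gene serpina10a, whose human counterpart encodes the protein Z-dependent inhibitor of activated factor X, was higher in retina, at 202 ± 10.2 TPM in mutants and 143 ± 13.4 TPM in wild type (SD, n = 3 each; log2 0.49, edgeR adjusted p = 0.00654).

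In sclera with choroid 2 of 18 tested coagulation genes besides F10 were higher and 0 lower, against 2.81% of all genes higher and 3.82% lower (median log2 -0.02, against 0.00 over all genes). They were f13a1b, the fibrin-crosslinking factor XIII subunit, with 103 ± 8.24 TPM in mutants and 35.1 ± 13.7 TPM in wild type (SD, n = 3 each; log2 1.41, edgeR adjusted p = 0.0169), and thbd, thrombomodulin (log2 0.69). Of 11 tested protease-activated receptors 1 was higher and 2 were lower in sclera with choroid, against the same shares of all genes. F2R (ENSDARG00000090041) was higher, with 26.9 ± 3.97 TPM in mutants and 11.5 ± 1.24 TPM in wild type (SD, n = 3 each; log2 1.05, edgeR adjusted p = 0.0158). F2RL2 (log2 -0.85) and the F2R identifier ENSDARG00000060012 (log2 -0.61) were lower. In RPE no coagulation gene besides F10 and no receptor passed, against 1.37% of all genes. In whole eyes no coagulation gene, F10 included, and no receptor passed, against 0.934% of all genes.

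Of the plasminogen system and pericellular proteases, 3 of 22 tested besides SERPINE3 were higher in mutant retina and 6 lower, against 8.13% of all genes higher and 11.3% lower (median log2 -0.23, against -0.01 over all genes). The protease gene prss56, which in mice and humans is known to bear on eye size, was lower in retina, with 1.29 ± 0.441 TPM in mutants and 8.02 ± 1.69 TPM in wild type (SD, n = 3 each; log2 -2.90, edgeR adjusted p = 0.000729). It was also the listed gene that was lower in whole eyes (log2 -3.06, edgeR adjusted p = 0.0223). HTRA3, a secreted serine protease, was higher in retina (log2 1.85) and in sclera with choroid (log2 0.82), and the surface peptidases fap and dpp4 parted in retina (log2 1.76 and -1.20). Of 23 tested in sclera with choroid, 1 was higher and 1, dpp4, was lower (log2 -1.05), against 2.81% of all genes higher and 3.82% lower.

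Among the serpins besides SERPINE3, 2 of 16 tested were higher and 3 lower in retina, against 8.13% of all genes higher and 11.3% lower. In RPE 1 of 16 was lower and in sclera with choroid 1 of 17, against 0.798% and 3.82% of all genes lower. That serpin was serpinb14 in both tissues. It stood at 5.24 ± 0.757 TPM in lrp2-/- sclera with choroid and 239 ± 71.8 TPM in wild type (SD, n = 3 each; log2 -5.52, edgeR adjusted p = 0.000651), and in RPE at 4.30 ± 1.15 TPM in mutants and 41.2 ± 4.79 TPM in wild type (SD, n = 3 each; log2 -3.32, edgeR adjusted p = 0.00726). In retina serping1, the inhibitor of complement C1 proteases, was higher (log2 3.28) at no more than 1.1 TPM on average, while serpinf1, pigment epithelium-derived factor, was lower (log2 -1.70), as were SERPIND1 (log2 -2.39) and serpinb14 (log2 -1.55).

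Of the transglutaminases besides TGM2, 0 of 8 tested in whole eyes and 0 of 10 tested in RPE passed, against 0.934% and 1.37% of all genes. In sclera with choroid 1 of 10 was higher and 2 were lower, against 2.81% of all genes higher and 3.82% lower (median log2 -0.54, against 0.00 over all genes). The lower pair was tgm5l, with 3.10 ± 1.33 TPM in mutants and 39.5 ± 25.8 TPM in wild type (SD, n = 3 each; log2 -3.93, edgeR adjusted p = 0.0316), and tgm1l1, with 13.7 ± 1.41 TPM in mutants and 28.3 ± 6.93 TPM in wild type (SD, n = 3 each; log2 -1.21, edgeR adjusted p = 0.0231). The higher gene was f13a1b, already given. In retina tgm2l was lower (log2 -1.47). The gene loxl2a, whose lysyl oxidase crosslinks collagen by another chemistry, was higher in retina (3.82 ± 1.16 TPM in mutants, 0.383 ± 0.0208 TPM in wild type, SD, n = 3 each; log2 3.13, edgeR adjusted p = 0.000627) and lower in sclera with choroid (log2 -0.94), where LOXL3 was lower too (log2 -0.87). The collagen lysyl hydroxylase PLOD1 was higher in retina (log2 0.86).

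Of 32 tested partners of fibronectin besides FN1, 0 passed in whole eyes, against 0.934% of all genes (median log2 0.17, against 0.01 over all genes). FN1 itself was higher there. In retina 3 of 28 were higher, ITGA8, sdc4 and sdc2 (log2 1.00, 0.58 and 0.51), and ITGB8 was lower (log2 -0.99), against 8.13% of all genes higher and 11.3% lower. The integrin subunit ITGB1 (ENSDARG00000022689) was lower in sclera with choroid (log2 -0.82). Among the small proteoglycans besides BGN, 1 of 17 tested passed in sclera with choroid, against 6.64% of all genes. This was ecm2, lower by a log2 fold change of -0.51. In RPE and whole eyes 0 passed, against 1.37% and 0.934% of all genes. Matrix metalloproteases and their inhibitors were higher in 6 and lower in 3 of 32 tested in retina, against 8.13% of all genes higher and 11.3% lower. In RPE 1 of 35 passed, against 1.37% of all genes. It was ADAMTS1, a protease that cuts large proteoglycans, with 98.9 ± 12.6 TPM in mutants and 18.7 ± 4.98 TPM in wild type (SD, n = 3 each; log2 2.24, edgeR adjusted p = 0.0210). The inhibitor gene TIMP4 was higher in sclera with choroid (log2 0.77), and there mmp23bb (log2 -0.98) and the inhibitor TIMP2 (log2 -0.61) were lower. TGFB3, a TGF-beta ligand, was higher in retina at 174 ± 14.0 TPM in mutants and 93.8 ± 7.30 TPM in wild type (SD, n = 3 each; log2 0.85, edgeR adjusted p = 0.000252), and LTBP1, a latency protein, was lower (log2 -0.64).

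**Figure D4:**
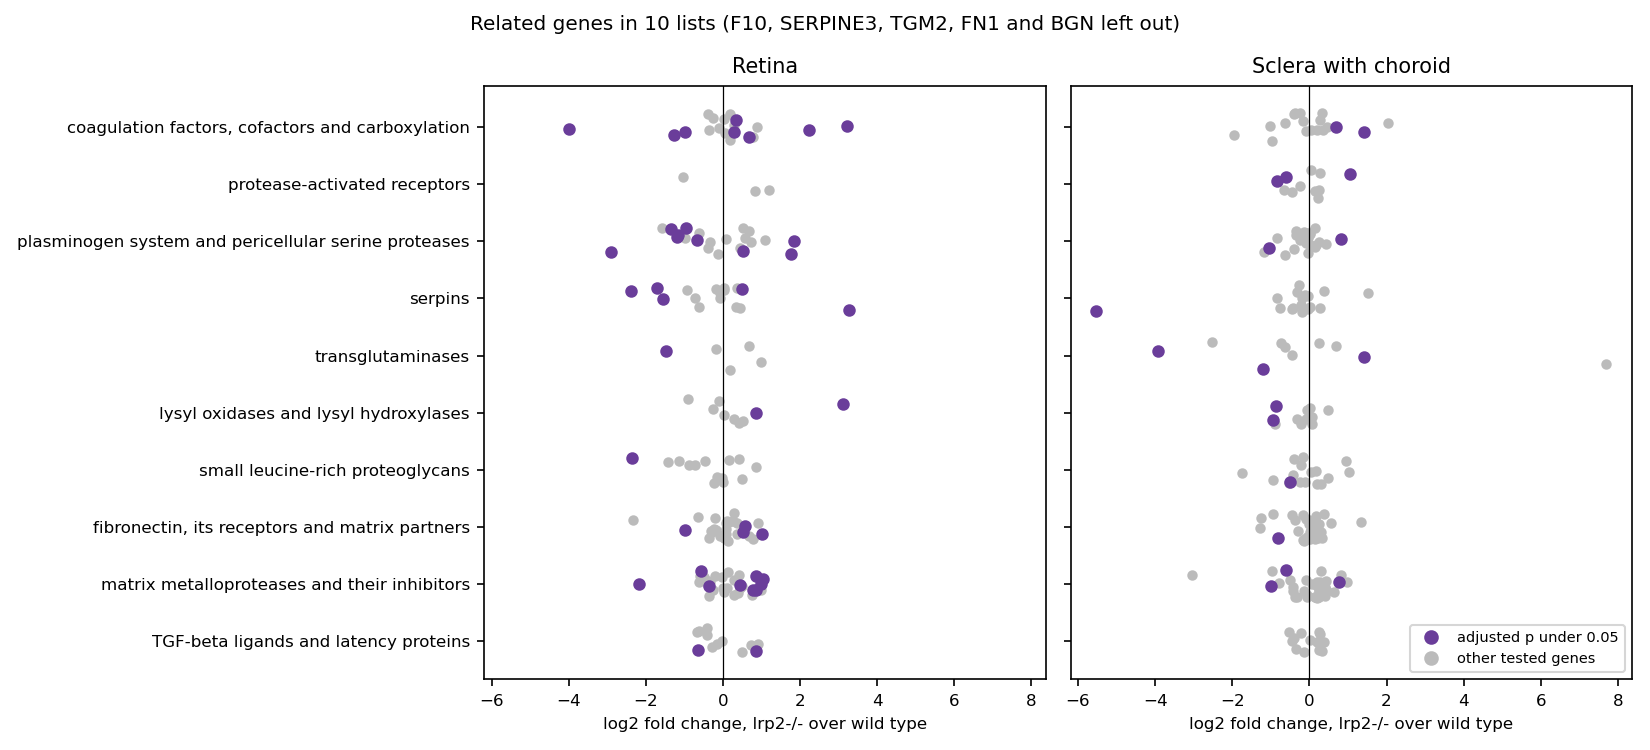
Log2 fold changes in lrp2-/- over wild type of the tested genes of the 10 lists, with the 5 genes left out, in retina (left) and in sclera with choroid (right), 1 point per gene and list, with darker points at an edgeR adjusted p under 0.05. Retina has 22 higher and 19 lower genes past the threshold, and sclera with choroid has 5 higher and 12 lower, with serpinb14 at -5.52 the lowest.

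The 5 genes did not share 1 pattern over the 24 libraries of 1 month. On log2(TPM + 1), TGM2, FN1 and BGN correlated with each other at Pearson r of 0.85 to 0.89, and F10 with FN1 at 0.84. SERPINE3 correlated with TGM2 at 0.03 and with FN1 at 0.14. These are descriptions over libraries that share tissue, genotype and depth. The genes most like SERPINE3 among 21173 were MCOLN1 (r = 0.942), CORIN (0.927) and zgc:162396 (0.920), and those most like F10 were ms4a17a.9 (0.965), mhc1uba (0.937) and ugt2a6 (0.926). TGM2 was most like tgm1l1, another transglutaminase (0.975), then plin3 (0.973) and edn1 (0.972). FN1 was most like ARPC1B, ENSDARG00000100977 and GATA3 (0.981 each), and BGN most like EDNRA (0.991), PPFIBP1 (0.989) and MYH11 (0.989). On log2(TPM + 0.1), 2 of the 3 names stayed for each of the 5 genes. Among genes with a mean of at least 5 TPM, 2 of 3 stayed for F10 and all 3 for the other genes.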

How the data were processed

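The read counter, annotation and strand setting are named in none of the sources read; Bowtie2, HISAT and the build GRCz10 are named per the submitters' processing notes. The authors deposited expected counts per gene, estimates that need not be whole, and TPM, transcript levels scaled for gene length and to a common total per library, for 31916 identifiers in 3 tables, 1 for the 24 libraries of 1 month and 1 for each larval line. Both the genes followed and the gene lists were chosen with earlier results of these data known. Sheets per transcript were not used.

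Levels are deposited TPM. Tests used rounded expected counts in edgeR 4.0.16 (R 4.3.3): genes with low counts removed by filterByExpr, TMM scaling, a robust quasi-likelihood F test and Benjamini-Hochberg adjustment over all genes, with the 2 groups of a comparison in each fit. Wild-type tissues shared a fit of 9 libraries and differences between tissues a fit of 24. The procedure was checked on simulated counts. Alternatives were RLE size factors, no filter, DESeq2 1.42.0, limma 3.58.1 on log2(TPM + 1), a replicate block and each library left out. Identifiers without a symbol took 2.22% of counts. Libraries within a group differed by more than sampling noise, with a chi-square per degree of freedom of at least 11.2.

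Same-numbered larval libraries deviated together (correlations of 0.604 to 0.735 for bmp4 and 0.283 to 0.402 for shha, each library best with its own number), so their numbers were taken as pairs from the data. At 1 month numbers were not taken as pairs. Each wild-type sclera library was still best with the RPE library of its number (correlations of 0.047 to 0.309, against -0.321 to 0.07 for other numbers). The test between these tissues treats their libraries as unpaired. Listed genes were named as up to 3 per direction, list and comparison with the largest fold change past the threshold; likeness names the 3 genes with the highest correlation over 24 libraries, among genes with a mean of at least 1 TPM. Neighbours of F10 and SERPINE3 were read by symbol from the RefSeq gene order of GRCz12tu, with the paralogue letter dropped for prozb and lamp1a. GRCz12tu is another build than that of the files, so no coordinates are given.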

Additional observations from a re-analysis of the deposited data

Results flagged for a closer look

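In the fit of all 24 libraries of 1 month, 5 of 30 differences of the lrp2 effect between tissues, over 6 pairs of tissues and 5 genes, passed edgeR's threshold. Of 23849 genes, 208 positive and 251 negative differences passed for RPE minus retina, and 253 and 330 for sclera with choroid minus retina. For sclera with choroid minus RPE 84 and 79 passed, and for RPE minus whole eyes 44 and 68. For retina minus whole eyes 13 and 32 passed, and for sclera with choroid minus whole eyes 64 and 47. The differences of the 5 genes rest on contrasts that may have served to choose the genes and are given as a description. For TGM2 the log2 effect of lrp2-/- over wild type in RPE minus that in retina was -1.4674 (SE 0.32), and RPE minus whole eyes was -1.3936 (SE 0.28). For the same gene, sclera with choroid minus retina was -1.5986 (SE 0.32), and sclera with choroid minus whole eyes was -1.5247 (SE 0.28). For BGN, sclera with choroid minus retina was -1.1329 (SE 0.22), where the gene was lower in mutant sclera with choroid and higher, short of the threshold, in mutant retina.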

How the results depend on the processing

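F10 and SERPINE3 in the 4 tissues of 1 month, and TGM2 in RPE and in sclera with choroid, kept their direction under every alternative run, with F10 in retina between 2.54 (limma on TPM, where the pseudocount shrinks low values) and 4.81. Counts of genes called moved more. DESeq2 called 1034 genes in whole eyes, 1819 in RPE, 3020 in sclera with choroid, 105 in the bmp4 line and 2 in the shha line, against 200, 289, 1404, 22 and 0 with edgeR, and limma called 14 in the bmp4 line. With the replicate block, whose numbers were taken as pairs in the larval libraries only, 409 genes passed in whole eyes, 368 in sclera with choroid and 0 in RPE (0 of the 5 genes there, with 4 libraries left), and BGN in sclera with choroid lost its call (-0.55). In the bmp4 line the block gave 609 genes and 1 of the 5, and in the shha line, without pair 13, 28 genes and 1 of the 5. Beyond those named with the results, it changed no larval call.

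Leaving out single libraries gave 1 to 359 genes in whole eyes (1 to 2 of the 5), 4 to 549 in RPE (1 to 3 of the 5), 2020 to 3477 in retina, 355 to 1090 in sclera with choroid (2 to 4 of the 5) and 6 to 12 in the bmp4 line. Fewer libraries enter these fits, so a lost call does not show a smaller difference. Of 179 listed genes tested in whole eyes, DESeq2 called 14 higher and 4 lower, against 474 and 560 of all 21411 genes. In RPE it called 12 of 180 higher and 8 lower, against 796 and 1023 of 21064. In sclera with choroid it called 11 of 184 higher and 24 lower, against 1324 and 1696 of 21159.

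Signs turned for small values, none of them called in the full fit, and the cause was not tested. FN1 in the bmp4 line was at 0.0031 with RLE and with DESeq2 and at -0.1771 to 0.0843 with libraries left out, and FN1 in retina was at -0.028 to 0.34. TGM2 in the bmp4 line was at 0.0479 with limma and at -0.5147 to 0.4364 with libraries left out, and SERPINE3 there at -0.0798 to 0.2831. In the shha line limma gave -0.0822 for F10, -0.0913 for SERPINE3 and -0.0455 for TGM2, which ran between -0.24 and 0.8374 with libraries left out. BGN in the shha line was at -0.5429 to 0.0426 with libraries left out and at 0.0524 with the block and without pair 13. Depth limits F10 in wild-type retina, with 24 counts over 3 libraries.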
